A study of Mus musculus with 9 samples.

Results

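The genes described here were the integrin chains, their ligands and other surface adhesion receptors, and the adaptors that link integrins to the cytoskeleton. They were chosen by symbol from a list made with earlier results of these data known. All 33 of 33 symbols were found among the 24459 rows of the expression table. The table holds RNA sequencing of B cells purified from mouse spleen. The study compared a subset of B cells with little surface IgD, BDL, with follicular (FO) and marginal zone (MZ) B cells.

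Each subset had 3 libraries, 9 libraries in all. FO cells were B220+ CD23+ CD93- with intermediate IgM and CD21 and high IgD, titled FO-IgD-Hi. BDL cells came from the same gate but carried low IgD, titled FO-IgD-Lo. MZ cells were B220+ CD23- CD93- with high IgM and CD21. All mice were untreated and 8 to 10 weeks old, and each sort pooled the spleens of 5 mice, so that a library is a pool and not an animal. The labels give the strain as C57/BL6, while B10.PL mice are named for the sort in the study's text. The titles carry the same 3 tags in every subset, which are read here as dates. The labels do not say which step the tags date. Replicates 1, 2 and 3 carry the same tag in every subset, but their numbers do not follow the calendar, since replicate 3 has the middle date.

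An integrin is a heterodimer of an alpha and a beta chain that binds matrix or a receptor on another cell, and its affinity is set from inside the cell. The alpha4 chain (Itga4) pairs with beta7 (Itgb7) to bind MAdCAM in the gut or with beta1 (Itgb1) to bind VCAM. The alphaL chain (Itgal) pairs with beta2 (Itgb2) to form LFA, which binds the ICAM proteins. In the spleen, LFA and alpha4beta1 are known to hold marginal zone B cells in their place, while alpha4beta7 serves the recirculation of follicular B cells.

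Expression was given in FPKM, that is, fragments per kilobase of a transcript scaled to all mapped fragments of that library. The summed FPKM ranged from 446033 to 517208 per library. Library depth estimated from the steps between low values ranged from 0.915 to 1.23 times that of FO replicate 1. Summed FPKM of 3 follicular markers (Fcer2a, Klf2, Cd55) was 1187 to 1311 in FO, 888 to 1057 in BDL and 264 to 332 in MZ libraries. That of 6 marginal zone markers (Cr2, Cd1d1, S1pr3, Dtx1, Plxnd1, Ackr3) was 194 to 204, 169 to 178 and 909 to 1079. Fcer2a and Cr2 encode CD23 and CD21, which the sort gated on, so the gates fixed their part in advance. The other markers also set MZ apart from FO and BDL. The BDL and FO labels were not tested against each other, since neither list holds a BDL marker. Plxnd1 was at 4.42 to 4.75 FPKM in BDL and 0.693 to 0.859 in FO. S1pr3 and Ackr3 were also higher in BDL than in FO, Cr2 was lower, and Cd1d1 and Dtx1 overlapped. All 8 T cell markers had a mean under 0.5 FPKM. The myeloid genes S100a8 and S100a9 were at most 0.54 FPKM in replicates 1 and 2 and between 1.95 and 2.82 FPKM in replicate 3 of each subset.

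Of the 33 genes, 22 reached an average of 0.5 FPKM across the libraries and were tested among 11597 genes with limma on log2(FPKM + 0.1). A gene was called when its Benjamini-Hochberg adjusted p was under 0.05 and its fold change was at least 2. In BDL as compared to FO, 1 of the 22 was called, Actn1, which was higher, against 1.91% of all genes tested (1.64% higher and 0.267% lower). In MZ as compared to FO, 7 were called (3 higher and 4 lower), against 8.92% of all genes (5.54% higher and 3.39% lower). In BDL as compared to MZ, 6 were called, all 6 higher in BDL, against 7.8% (3.47% higher and 4.34% lower). Without the minimum on fold change, 5 of the 22 had an adjusted p under 0.05 in BDL as compared to FO, 4 higher and 1 lower, against 7.73% of all genes (6.04% higher and 1.68% lower). In MZ as compared to FO these were 14, 7 in each direction, against 27.1% (14.3% higher and 12.8% lower), and in BDL as compared to MZ 12, 9 higher and 3 lower, against 28.1% (16.5% and 11.6%). The median log2 fold change of the 22 was 0.12, 0.05 and 0.16 in these comparisons, beside 0.05, -0.01 and 0.06 for all genes. The 3 comparisons share libraries and are not independent of each other. Since the 33 genes were chosen with earlier results of these data known, their shares are no independent test of the gene family. In RNA from a pool of cells, fewer cells that express a gene and less of its RNA per cell cannot be told apart.

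**Figure D1:**
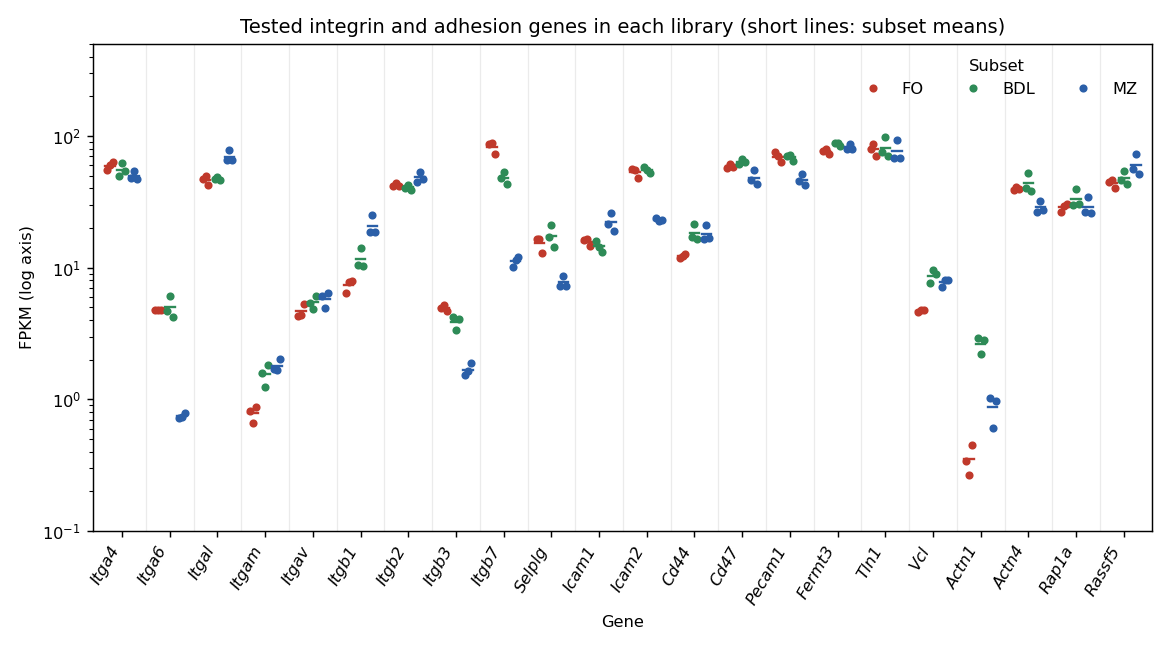
FPKM (log axis) of the 22 tested genes in each library, with FO in red, BDL in green and MZ in blue, replicates 1 to 3 from left to right and a short line at each subset's mean. Itgb7 steps down from FO (mean 82.8) to BDL (48.2) and MZ (11.2), Itgb1 steps up (7.38, 11.6 and 20.9), and Actn1 is highest in the 3 BDL libraries.

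**Figure D2:**
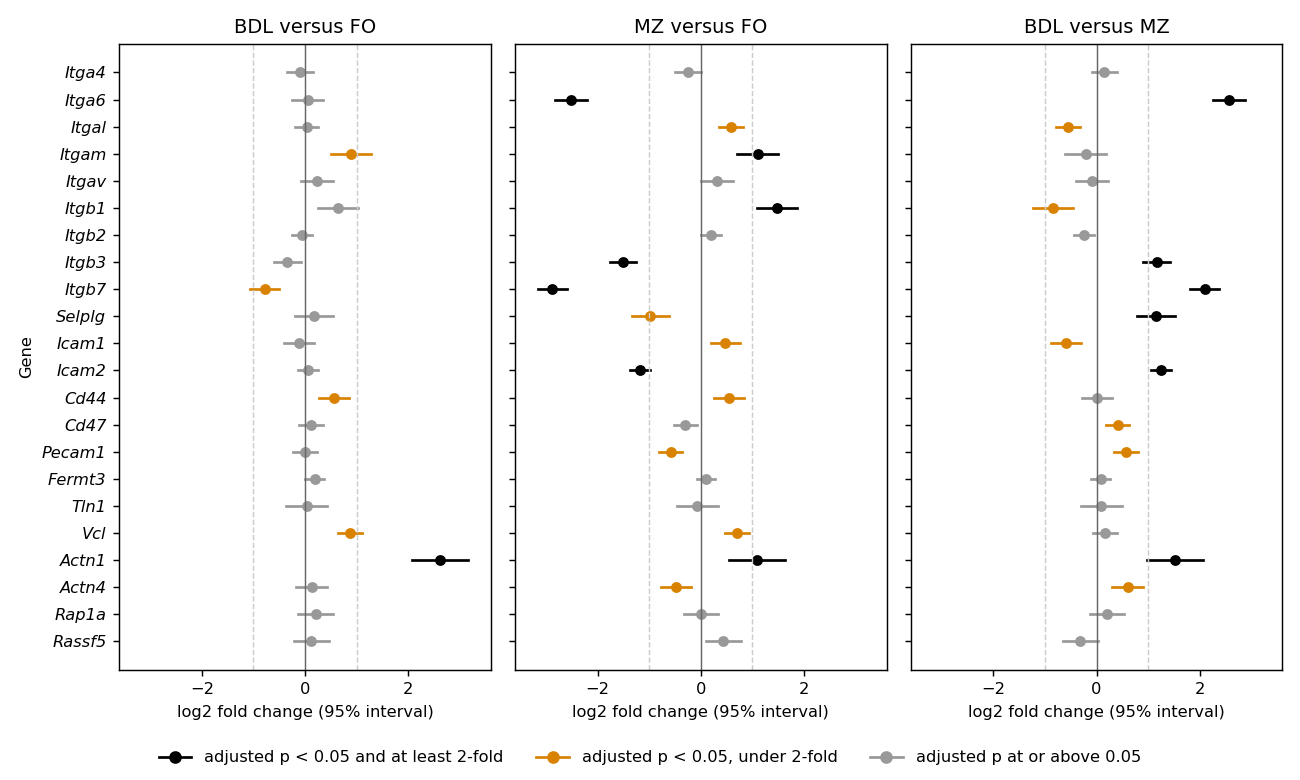
Fitted log2 fold change and its 95% interval for the 22 tested genes in each comparison, with dashed lines at 2-fold in either direction. Black points passed the adjusted p and the 2-fold minimum, orange points passed the adjusted p alone and grey points did not pass; 1, 7 and 6 points are black in BDL versus FO, MZ versus FO and BDL versus MZ.

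Among the beta chains, Itgb7 fell from FO to BDL and again to MZ, and Itgb1 was highest in MZ. Itgb7 (chromosome 15, 102046426 to 102062366, minus strand, in the mm9 genome) was at 86.5, 88.8 and 73.0 FPKM in FO replicates 1, 2 and 3. It was at 47.8, 53.8 and 43.0 FPKM in BDL and at 10.0, 11.4 and 12.1 FPKM in MZ. No library of one subset reached the range of another. The fitted log2 fold change was -0.78 ± 0.12 (SE, limma adjusted p = 0.0082) in BDL as compared to FO, which is 1.72-fold lower. It was -2.88 ± 0.12 (adjusted p = 1.8e-06) in MZ as compared to FO and 2.1 ± 0.12 (adjusted p = 1.2e-05) in BDL as compared to MZ.

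Itgb1 (chromosome 8, 131209554 to 131257100, plus strand) ran in the opposite order. It was at 6.39, 7.76 and 7.99 FPKM in FO, at 10.5, 14.0 and 10.2 FPKM in BDL and at 18.8, 25.1 and 18.7 FPKM in MZ. The 3 ranges did not overlap. In the fit, the log2 fold change was 1.48 ± 0.17 (limma adjusted p = 3.1e-04) in MZ as compared to FO and -0.84 ± 0.17 (adjusted p = 0.0066) in BDL as compared to MZ. In BDL as compared to FO it was 0.64 ± 0.17 and did not pass (adjusted p = 0.056). It passed with the date tag as a block (adjusted p = 0.013), with a robust variance estimate (0.047) and without MZ replicate 2 (0.039).

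The ratio of Itgb7 to Itgb1, both in FPKM, was chosen after these values were seen. It was 13.5, 11.4 and 9.14 in FO, 4.53, 3.84 and 4.20 in BDL and 0.534, 0.452 and 0.650 in MZ. Itgb7 thus exceeded Itgb1 in all 6 FO and BDL libraries and was below it in the 3 MZ libraries. The mean ratio was 11.4 ± 2.20 (SD, n = 3) in FO, 4.19 ± 0.343 in BDL and 0.545 ± 0.0993 in MZ. The exact two-sided permutation test on the log2 ratio gave p = 0.1 in each comparison, the smallest value that 3 libraries against 3 allow.

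**Figure D3:**
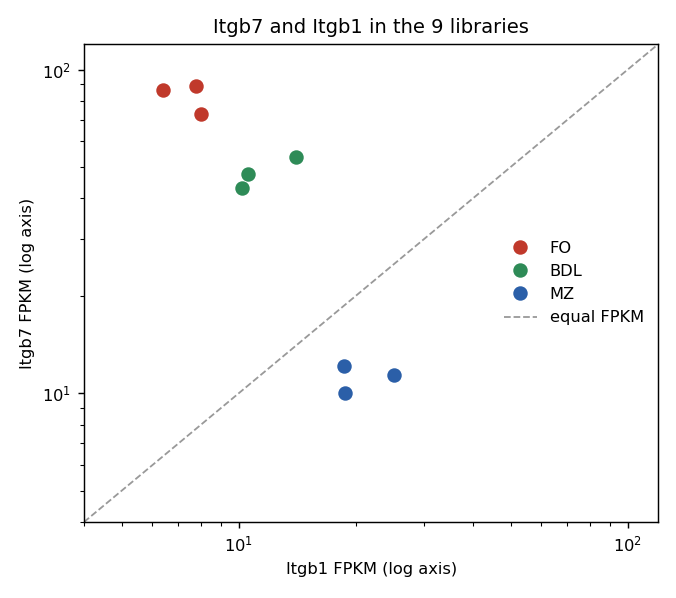
Itgb7 FPKM against Itgb1 FPKM in the 9 libraries (both axes log), with FO in red, BDL in green, MZ in blue and a dashed line where the values are equal. The 3 MZ libraries lie below the line, and the BDL libraries (ratios of 3.84 to 4.53) lie between the FO libraries (9.14 to 13.5) and the MZ libraries.

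The promoter letters of these chains, the 250 bases before the transcription start, are shown because the chains ran in opposite directions. The sequences are from RefSeq on GRCm38.p6, a later build than the mm9 of the expression table. Capitals mark CACCC and its reverse complement GGGTG, the core that KLF family factors bind.
Itgb7 (chr15:102231936-102232185, minus strand): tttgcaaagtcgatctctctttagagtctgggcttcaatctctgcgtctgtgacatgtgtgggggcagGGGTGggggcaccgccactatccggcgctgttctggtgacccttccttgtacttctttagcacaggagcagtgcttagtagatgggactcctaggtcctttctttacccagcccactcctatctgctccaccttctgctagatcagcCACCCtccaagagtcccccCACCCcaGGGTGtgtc
Itgb1 (chr8:128685404-128685653, plus strand): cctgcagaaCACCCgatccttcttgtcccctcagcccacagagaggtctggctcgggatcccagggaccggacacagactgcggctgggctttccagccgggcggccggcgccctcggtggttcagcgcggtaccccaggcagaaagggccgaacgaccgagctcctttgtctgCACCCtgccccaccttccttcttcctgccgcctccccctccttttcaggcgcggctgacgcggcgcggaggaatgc

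The Itgb7 window held 4 such matches and the Itgb1 window 2. Windows were found for 24 of the 33 genes, 26 windows in all, and 17 of the 26 held CACCC on either strand, beside 52.0% of 32851 windows of the same length. The GC box GGGCGG was in 15 of 26 (32.7% of all windows), and TGGGAA, the core of the RBPJ site, was in 4 of 26 (21.6%). The cores CCGGAA (ETS), TGTGGT (RUNX) and CAGCTG (an E box) were in 4, 3 and 4 of 26, beside 12%, 14% and 13% of all windows. These matches describe letters only, and binding was not measured. Klf2, a KLF factor known to hold follicular B cells in their recirculating state, was at 399, 451 and 468 FPKM in FO, at 303, 358 and 328 FPKM in BDL and at 179, 228 and 249 FPKM in MZ. Its part in the Itgb7 levels was not tested.

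Itgb3, the partner of alphaV in binding vitronectin, was lowest in MZ. It was at 4.98, 5.21 and 4.67 FPKM in FO, at 4.23, 3.39 and 4.04 FPKM in BDL and at 1.54, 1.63 and 1.88 FPKM in MZ. The MZ libraries lay apart from both other subsets, and the BDL libraries lay below the FO libraries without passing the test (log2 fold change -0.34 ± 0.11, limma adjusted p = 0.11). The fitted log2 fold change was -1.51 ± 0.11 (adjusted p = 3.6e-05) in MZ as compared to FO and 1.16 ± 0.11 (adjusted p = 1.6e-04) in BDL as compared to MZ. Itgb3 is also a platelet gene, paired there with Itga2b. Of 9 megakaryocyte and platelet markers, 8 had a mean under 0.5 FPKM, and Ppbp was at 0 in every library. The summed level was 2.23 to 2.66 FPKM in FO, 1.27 to 2.11 in BDL and 1.43 to 2.02 in MZ. Most of this sum was Gp1ba, at 1.46 to 1.96 FPKM in FO, 0.97 to 1.48 in BDL and 1.23 to 1.48 in MZ. Itga2b was at 0.357 to 0.436 FPKM in FO, 0.0644 to 0.368 in BDL and 0.108 to 0.374 in MZ. The rest were at most 0.244 FPKM in every library. The part of such cells in the Itgb3 level was not tested.

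Itgb2, the shared beta chain of the leukocyte integrins, was at 39.2 to 53.3 FPKM over the 9 libraries and passed in no comparison of the fit. Its largest difference was a log2 fold change of -0.25 ± 0.08 (limma adjusted p = 0.060) in BDL as compared to MZ. With the date tag as a block this passed (adjusted p = 0.017), as did the log2 fold change of 0.19 in MZ as compared to FO (0.044). The former also passed without BDL replicate 2 (0.048), with no minimum (0.048) and with upper quartile scaling (0.0092) or quantile normalization (0.0017), the latter with quantile normalization (0.011). Itgb5 stayed between 0.0293 and 0.0703 FPKM, and Itgb8 was listed at 0 in 8 libraries and at 0.00509 FPKM in MZ replicate 3.

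Summed over all beta chains in the table, the FPKM was 137.5 ± 9.25 (SD, n = 3) in FO, 104.5 ± 8.86 in BDL and 82.3 ± 8.28 in MZ. The exact two-sided permutation p was 0.1 in each comparison, again the smallest possible. Itgb7 made up 60.1% ± 2.47 of this sum in FO, 46.0% ± 1.38 in BDL and 13.6% ± 1.42 in MZ. The share of Itgb1 was 5.39% ± 0.849, 11% ± 1.08 and 25.2% ± 2.05, and that of Itgb2 was 30.8% ± 1.61, 39.0% ± 1.56 and 58.9% ± 0.676. None of these 3 shares overlapped between any pair of subsets (exact permutation p = 0.1 for each). Shares of FPKM describe RNA and not protein pairs on the surface.

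**Figure D4:**
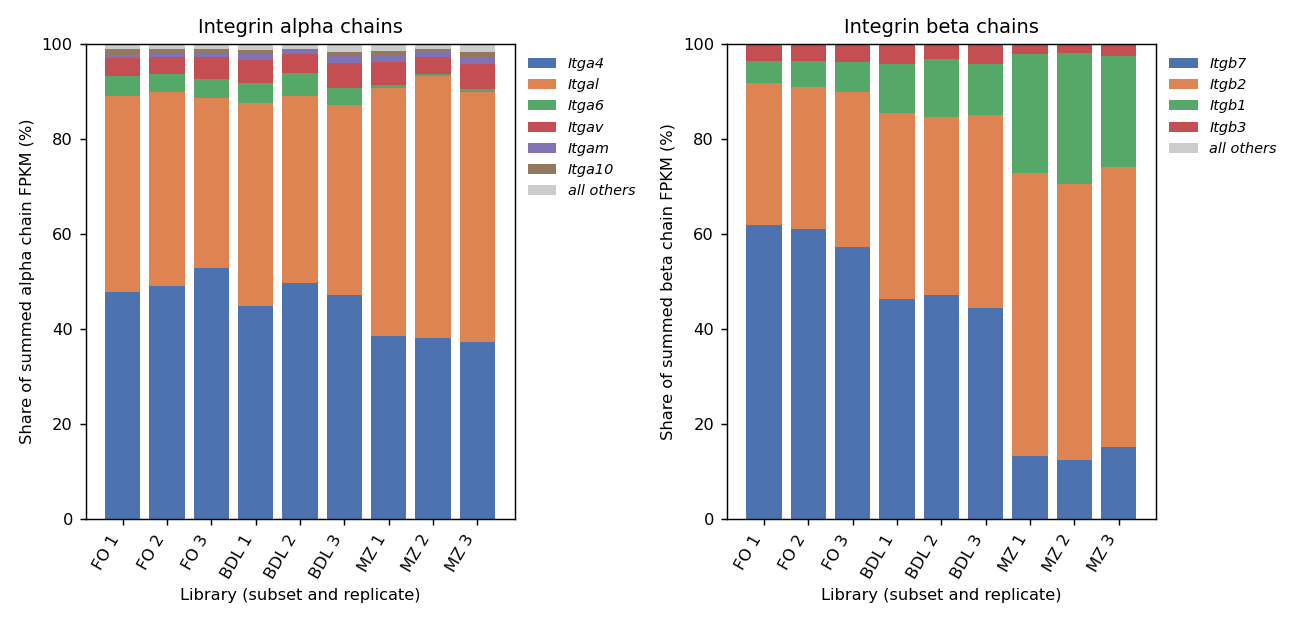
Share (%) of each chain in the summed alpha chain FPKM (left) and beta chain FPKM (right) of each library, with chains that hold little of the sum drawn together in grey. Among beta chains the mean share of Itgb7 goes from 60.1% in FO to 46.0% in BDL and 13.6% in MZ, while among alpha chains Itga4 and Itgal hold most of the sum in every library.

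Among the alpha chains, Itga6 was lower in MZ than in FO and BDL, and Itgal was higher. Itga6, a laminin receptor chain, lies at chromosome 2, 71583673 to 71696473. It was at 4.75, 4.81 and 4.74 FPKM in FO, at 4.68, 6.09 and 4.21 FPKM in BDL and at 0.728, 0.731 and 0.795 FPKM in MZ. FO and BDL libraries overlapped, and all 6 lay above the MZ libraries. By limma, the log2 fold change was -2.52 ± 0.13 (limma adjusted p = 5.7e-06) in MZ as compared to FO and 2.56 ± 0.13 (adjusted p = 7.1e-06) in BDL as compared to MZ. In BDL as compared to FO it was 0.05 with a 95% interval from -0.26 to 0.35.

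Itgal was at 47.2, 49.9 and 42.5 FPKM in FO, at 47.5, 49.2 and 46.0 FPKM in BDL and at 65.2, 78.0 and 66.2 FPKM in MZ. Every MZ library was above every other library. The log2 fold change was 0.58 ± 0.10 (limma adjusted p = 0.0030) in MZ as compared to FO and -0.55 ± 0.10 (adjusted p = 0.0043) in BDL as compared to MZ, both under 2-fold. The interval of the difference between BDL and FO was -0.19 to 0.26 on the log2 scale.

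Itgam, the alpha chain of complement receptor CR3 and a myeloid marker in other settings, was low in FO. It was at 0.820, 0.659 and 0.881 FPKM in FO, at 1.58, 1.25 and 1.82 FPKM in BDL and at 1.70, 1.67 and 2.02 FPKM in MZ. BDL and MZ libraries overlapped, and both lay above FO. In the fit, the log2 fold change was 1.10 ± 0.17 (limma adjusted p = 0.0020) in MZ as compared to FO, and it was under 2-fold without FO replicate 2 (0.99) and with quantile normalization (0.95).

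In BDL as compared to FO, Itgam had a log2 fold change of 0.89 ± 0.17 (limma adjusted p = 0.021). This call was lost without FO replicate 1 (adjusted p = 0.070), FO replicate 2 (0.080), BDL replicate 1 (0.070) or BDL replicate 3 (0.059), and in a fit of the 6 FO and BDL libraries alone (0.051). The fitted log2 fold change was then between 0.77 and 0.92. Summed FPKM of 11 myeloid markers was 3.53 to 10.8 in FO, 6.32 to 12.5 in BDL and 4.06 to 11.8 in MZ. Emr1, one of them, was at 0.64 to 0.89 FPKM in FO, 3.13 to 3.88 in BDL and 0.54 to 0.77 in MZ. Csf1r was at 0.28 to 0.38 FPKM in FO, 0.33 to 0.43 in BDL and 0.43 to 0.63 in MZ. Over all libraries, Lyz2 was at 0.66 to 3.25 FPKM, Csf3r at 0.61 to 1.46 and C1qa at 0.45 to 1.01. Cd14, Fcgr1, Mpo and Mertk were at most 0.14 FPKM in every library. The part of such cells in the Itgam level was not tested.

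Itga4, the most abundant alpha chain in FO, was at 47.1 to 63.0 FPKM over the 9 libraries and did not pass in any comparison of the fit. Its log2 fold change was -0.25 (95% interval -0.50 to -0.00, limma adjusted p = 0.13) in MZ as compared to FO, and it passed there with the date tag as a block (0.046). Itgav, which pairs with several beta chains, was at 4.32 to 6.45 FPKM and did not pass either. Its log2 fold change of 0.32 in MZ as compared to FO (adjusted p = 0.12) passed with that block (0.015). Summed alpha chain FPKM was 118.6 ± 3.93 (SD, n = 3) in FO, 117.3 ± 7.19 in BDL and 130.9 ± 9.41 in MZ, with exact permutation p of 0.8 for BDL against FO, 0.1 for MZ against FO and 0.2 for BDL against MZ. Itga4 held 50.0% ± 2.65 of this sum in FO, 47.3% ± 2.50 in BDL and 38.1% ± 0.606 in MZ. Itgal held 39.3% ± 3.02, 40.6% ± 1.83 and 53.2% ± 1.56, so the leading alpha chain was Itga4 in FO and BDL by mean and Itgal in MZ.

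The other alpha chains among the 33 genes were under 0.5 FPKM on average and were not tested in the fit above. In a fit of all 18518 rows with a value above 0, 2, 8 and 10 of the 33 genes were called in BDL versus FO, MZ versus FO and BDL versus MZ, against 1.63%, 7.62% and 6.56% of all rows. Itgax, the alphaX chain known as CD11c, was at 0.0560, 0.0877 and 0.190 FPKM in FO, at 0.114, 0.145 and 0.292 FPKM in BDL and at 0.592, 0.485 and 0.669 FPKM in MZ. The MZ libraries were above all others, with a log2(FPKM + 0.1) difference of 1.73 from FO (limma adjusted p = 0.0047). Itgax and Itgam are neighbours on chromosome 7. Summed FPKM of 5 dendritic cell markers was 2.16 to 2.66 in FO, 1.63 to 2.57 in BDL and 2.36 to 3.23 in MZ.

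Itga5, the fibronectin receptor chain, was highest in BDL at 0.129, 0.153 and 0.224 FPKM. It was at 0.0648, 0.0345 and 0.0673 FPKM in FO and at 0.0206, 0.00841 and 0.0106 FPKM in MZ. The 3 ranges did not overlap, at a depth of about 32 to 61 fragments per BDL library and 2 to 5 per MZ library. The log2(FPKM + 0.1) difference was 1.23 (limma adjusted p = 7.3e-04) in BDL as compared to MZ and 0.78 (adjusted p = 0.021) in BDL as compared to FO.

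Itga9, a tenascin receptor chain, was likewise highest in BDL, at 0.149, 0.366 and 0.202 FPKM. It was at 0.0513 to 0.0989 FPKM in FO and at 0.0484 to 0.0669 FPKM in MZ. The difference passed against MZ (1.07, limma adjusted p = 0.012) and not against FO (0.91, adjusted p = 0.059). Itga3 was at 0.415 to 0.504 FPKM in MZ, 0.221 to 0.321 in BDL and 0.213 to 0.273 in FO, and the difference between MZ and FO was 0.74 (adjusted p = 0.0090). Itga2, Itgae and Itga1 were at most 0.150 FPKM in every library, and Itga8 was listed at 0 in 5 of them.

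**Figure D5:**
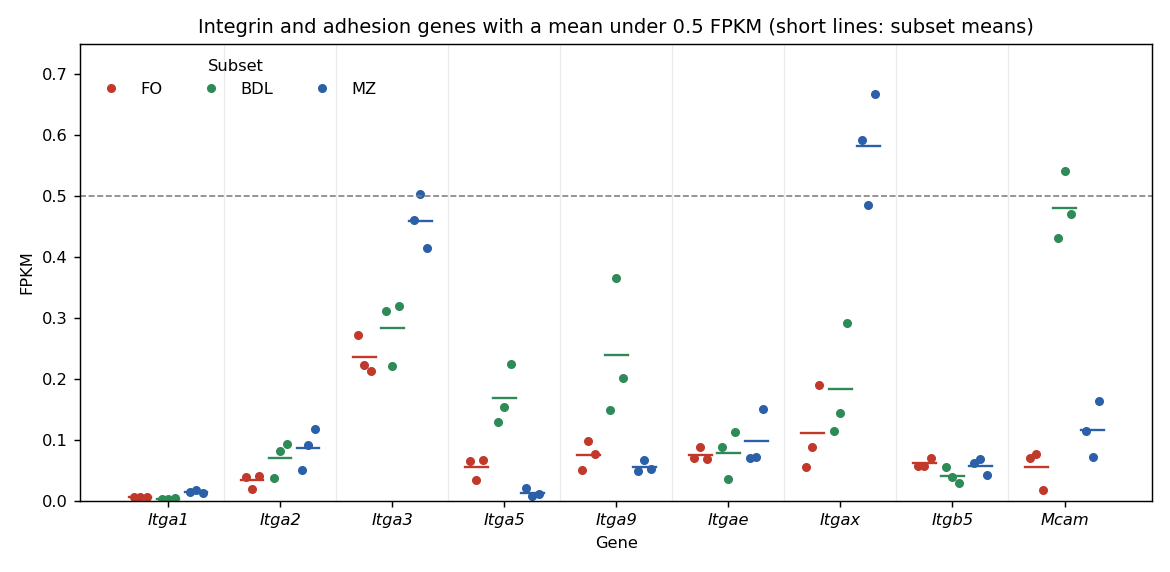
FPKM (linear axis) of 9 genes with a mean under 0.5 FPKM (dashed line), with FO in red, BDL in green and MZ in blue and a short line at each mean; Itga8 and Itgb8, at or near 0, are not drawn. Mcam, Itga5 and Itga9 are highest in BDL, and Itgax and Itga3 are highest in MZ.

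Among ligands and surface adhesion receptors, Icam2 and Selplg were lower in MZ and Icam1 was higher. Icam2, a counter-receptor of LFA, lies at chromosome 11, 106238970 to 106249389. It was at 55.7, 55.1 and 48.1 FPKM in FO, at 58.1, 55.4 and 52.2 FPKM in BDL and at 23.8, 22.7 and 23.0 FPKM in MZ. All 6 FO and BDL libraries were above the MZ libraries. By limma, the log2 fold change was -1.19 ± 0.08 (limma adjusted p = 2.6e-05) in MZ as compared to FO and 1.25 ± 0.08 (adjusted p = 2.5e-05) in BDL as compared to MZ, and its interval in BDL as compared to FO was -0.13 to 0.26.

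Icam1, the other LFA ligand, was at 16.3, 16.4 and 14.7 FPKM in FO, at 16.0, 14.4 and 13.2 FPKM in BDL and at 21.5, 25.9 and 19.1 FPKM in MZ. The MZ libraries were the highest, opposite to Icam2. The log2 fold change was -0.60 ± 0.12 (limma adjusted p = 0.0088) in BDL as compared to MZ and 0.48 ± 0.12 (adjusted p = 0.023) in MZ as compared to FO. The call against FO was lost without FO replicate 1 (adjusted p = 0.059), 2 (0.060) or 3 (0.077) or MZ replicate 1 (0.061).

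Selplg encodes PSGL, the ligand of P-selectin. It was at 16.5, 16.6 and 13.0 FPKM in FO, at 17.0, 21.0 and 14.4 FPKM in BDL and at 7.27, 8.70 and 7.28 FPKM in MZ. The MZ libraries were below all others. In the fit, the log2 fold change was 1.15 ± 0.16 (limma adjusted p = 0.0011) in BDL as compared to MZ. In MZ as compared to FO it was -0.98 ± 0.16 (adjusted p = 0.0023), just under 2-fold, and it was past 2-fold without FO replicate 3 (-1.09) or MZ replicate 2 (-1.06) and, narrowly, with quantile normalization.

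Pecam1, a homophilic receptor, was at 75.0, 70.7 and 63.6 FPKM in FO, at 71.1, 71.9 and 64.7 FPKM in BDL and at 45.6, 51.1 and 42.6 FPKM in MZ. FO and BDL overlapped, and MZ lay below. The fitted log2 fold change was -0.59 ± 0.10 (limma adjusted p = 0.0033) in MZ as compared to FO and 0.58 ± 0.10 (adjusted p = 0.0037) in BDL as compared to MZ. Pecam1 and Icam2 are also endothelial genes, and 8 endothelial and stromal markers summed to 0.213 to 0.274 FPKM in FO, 0.335 to 0.416 in BDL and 0.751 to 0.934 in MZ. Most of this sum was Cdh5 alone, at 0.202 to 0.244 FPKM in FO, 0.314 to 0.396 in BDL and 0.716 to 0.934 in MZ. The rest were at most 0.0255 FPKM in every library, and of these Kdr was highest in BDL. The part of such cells in the levels of both genes was not tested.

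Cd47, the ligand of SIRPalpha that also associates with integrins, was at 57.5, 61.4 and 58.5 FPKM in FO, at 61.7, 66.8 and 63.1 FPKM in BDL and at 46.6, 55.0 and 43.3 FPKM in MZ. The ranges of the 3 subsets did not overlap. By limma, the log2 fold change was 0.41 ± 0.10 (limma adjusted p = 0.017) in BDL as compared to MZ, lost without MZ replicate 1 (adjusted p = 0.059) or 3 (0.052) and in a fit of the 6 BDL and MZ libraries alone (0.051). In MZ as compared to FO it was -0.30 ± 0.10 and did not pass (adjusted p = 0.057). It passed with the date tag as a block (0.020), with upper quartile scaling (0.028) and without BDL replicate 2 (0.048) or MZ replicate 2 (0.0091).

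Cd44, the hyaluronan receptor, was lowest in FO. It was at 11.8, 12.3 and 12.7 FPKM in FO, at 17.1, 21.3 and 16.5 FPKM in BDL and at 16.6, 21.0 and 16.9 FPKM in MZ. BDL and MZ values nearly coincided date by date, and their difference had an interval of -0.28 to 0.30 on the log2 scale. The log2 fold change was 0.55 ± 0.13 (limma adjusted p = 0.013) in MZ as compared to FO, lost without FO replicate 1 (0.052). It was 0.56 ± 0.13 (adjusted p = 0.034) in BDL as compared to FO, where the call was lost without any FO library (0.13, 0.12 and 0.087 without replicates 1, 2 and 3), without any BDL library (0.077, 0.062 and 0.053) without MZ replicate 1 (0.053) or 3 (0.052), and in a fit of the 6 FO and BDL libraries alone (0.052).

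Mcam, the adhesion receptor CD146, was highest in BDL at a low level. It was at 0.432, 0.542 and 0.470 FPKM in BDL, at 0.0708, 0.0772 and 0.0184 FPKM in FO and at 0.115, 0.0716 and 0.164 FPKM in MZ. This was about 72, 118 and 88 fragments in BDL, with no library of another subset above 32. In the fit without a minimum, the log2(FPKM + 0.1) difference was 1.92 ± 0.21 (limma adjusted p = 0.0031) in BDL as compared to FO and 1.44 ± 0.21 (adjusted p = 0.0022) in BDL as compared to MZ. Mcam is also expressed by endothelium, whose markers are given with Pecam1, and the part of such cells in the Mcam level was not tested.

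Among the adaptors, Actn1 and Vcl were raised in BDL, while the activators of integrin tails did not pass in any comparison. Actn1 encodes alpha-actinin, which crosslinks actin at adhesion sites, and lies at chromosome 12, 81268529 to 81361358. It was at 2.92, 2.21 and 2.81 FPKM in BDL, at 0.339, 0.269 and 0.448 FPKM in FO and at 1.03, 0.609 and 0.971 FPKM in MZ. The ranges of the 3 subsets did not overlap, and the gene passed the 0.5 FPKM minimum through BDL and MZ. In the fit, the log2 fold change was 2.61 ± 0.24 (limma adjusted p = 7.8e-04) in BDL as compared to FO, which is 6.12-fold higher, and 1.52 ± 0.24 (adjusted p = 0.0020) in BDL as compared to MZ. In MZ as compared to FO it was 1.09 ± 0.24 (adjusted p = 0.010), and it was under 2-fold without FO replicate 2 (0.95) or MZ replicate 1 (0.97) and with quantile normalization (0.93).

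The promoter of Actn1 is printed for the gene that was called in BDL as compared to FO. It is from RefSeq on GRCm38.p6, in lower case throughout because it held no CACCC or GGGTG.
Actn1 (chr12:80260364-80260613, minus strand): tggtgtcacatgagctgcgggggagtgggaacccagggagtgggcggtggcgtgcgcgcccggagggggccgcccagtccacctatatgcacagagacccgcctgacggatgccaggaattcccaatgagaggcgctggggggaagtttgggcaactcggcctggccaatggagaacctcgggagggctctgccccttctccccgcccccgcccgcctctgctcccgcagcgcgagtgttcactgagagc

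This window held 4 matches to the GC box and 2 to the RBPJ core, counting both strands. Of the 26 windows, those of Cd44, Actn4, Vcl and Actn1 held the RBPJ core.

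Vcl, vinculin, ties talin to actin. It was at 4.62, 4.74 and 4.79 FPKM in FO, at 7.61, 9.62 and 8.90 FPKM in BDL and at 7.11, 8.11 and 8.09 FPKM in MZ. All BDL and MZ libraries were above the FO libraries, and BDL overlapped MZ. The fitted log2 fold change was 0.86 ± 0.10 (limma adjusted p = 0.0025) in BDL as compared to FO and 0.71 ± 0.10 (adjusted p = 0.0011) in MZ as compared to FO. The difference between BDL and MZ was 0.16, with an interval from -0.07 to 0.39.

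Actn4, the other alpha-actinin of non-muscle cells, did not follow Actn1. It was at 39.2, 41.0 and 39.3 FPKM in FO, at 40.6, 52.5 and 38.4 FPKM in BDL and at 26.6, 31.9 and 27.6 FPKM in MZ. MZ lay below both other subsets, and FO and BDL overlapped. By limma, the log2 fold change was 0.60 ± 0.13 (limma adjusted p = 0.0095) in BDL as compared to MZ and -0.48 ± 0.13 (adjusted p = 0.026) in MZ as compared to FO. The call against FO was lost without FO replicate 1 (0.070), 2 (0.088) or 3 (0.063) and without MZ replicate 1 (0.090) or 3 (0.077). Actn4 was over 10 times as abundant as Actn1 per kilobase in every library.

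Tln1 (talin) and Fermt3 (kindlin), which bind beta chain tails to activate integrins, were at 67.7 to 98.8 and 72.5 to 88.6 FPKM. Rap1a, the small GTPase that triggers this step, was at 26.2 to 39.7 FPKM, and Rassf5, its effector RAPL that binds LFA, was at 40.5 to 73.1 FPKM. None of the 4 passed in any comparison of the fit, and the smallest adjusted p was 0.061 for Rassf5 in MZ as compared to FO (log2 fold change 0.44 ± 0.15). This difference passed with the date tag as a block (0.0068), with upper quartile scaling (0.034) or quantile normalization (0.013), and without BDL replicate 2 (0.044) or MZ replicate 3 (0.041). Rassf5 also passed in BDL as compared to MZ (log2 fold change -0.31, adjusted p = 0.15) with the block (0.021) and with quantile normalization (0.020). In Tln1, Rap1a and Rassf5, replicate 2 was the highest library of BDL and of MZ. The same held for Itga4, Itgal, Itgb1, Itgb2, Selplg, Cd44, Cd47, Pecam1, Vcl and Actn4. Summed FPKM over all genes was also highest in replicate 2 of these subsets, at 477024 in BDL and 517208 in MZ.

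Counting genes whose libraries did not overlap between subsets, there were 9 of 22 in BDL versus FO, 7 higher and 2 lower, or 40.9% beside 34.8% of all genes tested (24.4% higher and 10.3% lower). That share was near the share of all genes. There were 18 in MZ versus FO, 9 in each direction, or 81.8% beside 46.1% (23.6% higher and 22.5% lower). There were 13 in BDL versus MZ, 9 higher and 4 lower, or 59.1% beside 38.9% (22.6% and 16.4%). These shares carry the same limit, that the genes were chosen with earlier results of these data known.

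A further 159 adhesion genes from 6 lists were in the table, and 89 were tested. In BDL versus FO, 5 were called (4 higher and 1 lower). In MZ versus FO, 23 were called (11 higher and 12 lower), and in BDL versus MZ, 22 were called (11 in each direction). These are 5.62%, 25.8% and 24.7% of the 89, beside 1.91%, 8.92% and 7.8% of all genes. The lists were chosen with earlier results of these data known.

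Among 28 tested genes of integrin activation, 1, 5 and 4 were called in these comparisons, beside 1.91%, 8.92% and 7.8% of all genes. Regulators of Rap1 were among those called, while Rap1a itself did not pass. Rap1b, the more abundant Rap1 gene, was at 149 to 206 FPKM in FO, 151 to 219 in BDL and 103 to 152 in MZ. Rap1gap, which switches Rap1 off, was at 20.4, 21.6 and 23.3 FPKM in MZ and at 0.154 to 0.655 FPKM in FO and BDL, a log2 fold change of 5.58 ± 0.37 (limma adjusted p = 2.0e-05) in MZ as compared to FO. The gene passed the minimum through MZ alone. Rasa3, which also inactivates Rap1, was at 36.2 to 41.6 FPKM in MZ and 106 to 112 FPKM in FO and BDL (-1.44 in MZ as compared to FO, adjusted p = 6.1e-06). Sipa1 and its relatives, further inactivators looked up after the values were seen, were called in no comparison. Sipa1 had a mean of 173 FPKM in FO, 157 in BDL and 163 in MZ. In the same order, Sipa1l1 was at 12.4, 10.0 and 9.01 FPKM, Sipa1l2 at 6.49, 5.23 and 8.66, and Sipa1l3 at 4.98, 4.52 and 4.64.

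Of the exchange factors that switch Rap1 on, Rasgrp2, Rapgef3 and Rapgef4 were called lower in MZ than in FO. Among those under the 2-fold minimum, looked up after the values were seen, Rapgef6 was lower (log2 fold change -0.65, limma adjusted p = 8.6e-04), Rapgef5 was higher (0.74, adjusted p = 0.0025), and Rapgef1 and Rapgef2 did not pass (-0.01 and -0.05). Rasgrp2 was at 142, 141 and 110 FPKM in FO and at 57.9, 45.2 and 56.8 FPKM in MZ (log2 fold change -1.29, limma adjusted p = 0.0018). Rapgef4 was at 18.6 to 22.7 FPKM in FO and 7.33 to 11.1 FPKM in MZ (-1.15, adjusted p = 0.0086), and the difference was -0.99 without MZ replicate 2. Rapgef3, a cyclic AMP sensor, was at 1.04, 0.837 and 0.742 FPKM in FO, at 2.75, 1.62 and 2.26 FPKM in BDL and at 0.274, 0.180 and 0.233 FPKM in MZ. The gene passed the FPKM minimum through FO and BDL. It was higher in BDL than in MZ (log2 fold change 2.79, adjusted p = 6.9e-05) and than in FO (1.23, adjusted p = 0.019). The latter was lost without FO replicate 2 (adjusted p = 0.072) or 3 (0.060) or BDL replicate 1 (0.057) or 3 (0.057). Rap1gap2, of the same kind as Rap1gap, was lower in BDL than in MZ (-1.17, adjusted p = 0.012), and under 2-fold without BDL replicate 2 (-0.91) or MZ replicate 3 (-0.99).

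Of 28 tested genes of the adhesion site and its actin linkage, 0, 3 and 5 were called, beside 1.91%, 8.92% and 7.8% of all genes. The 3 in MZ versus FO were 10.7% of the 28, near the share of all genes. In BDL as compared to FO, where limma called 0, 6 of the 28 had an unadjusted p under 0.05. The share of all genes at that unadjusted threshold was not counted. Ptk2 alone had an adjusted p under 0.05, beside 7.73% of all genes. Its log2 fold change of -0.64 (adjusted p = 0.035) did not pass without FO replicate 1 (0.052), 2 (0.14) or 3 (0.11), BDL replicate 1 (0.11) or 3 (0.087) or MZ replicate 3 (0.056), nor with no minimum (0.052), with the 6 libraries alone (0.052) or with quantile normalization (0.064). Rsu1, a partner of the focal adhesion protein PINCH, was at 56.1, 86.6 and 59.7 FPKM in MZ and 11.9 to 16.3 FPKM elsewhere (log2 fold change 2.32 in MZ as compared to FO, limma adjusted p = 3.9e-05). Flna, filamin, which binds beta tails and actin, was lower in MZ than in FO (-1.54, adjusted p = 8.3e-05). Tns3, a tensin, was higher in MZ than in FO (1.18, adjusted p = 3.3e-04). Ptk2, focal adhesion kinase, was lower in BDL than in MZ (-1.15, adjusted p = 6.9e-04), and Msn, moesin, was higher (1.10, adjusted p = 0.0021), though under 2-fold without BDL replicate 2 (0.91).

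Among 6 tested selectin genes, 0, 2 and 1 were called, beside 1.91%, 8.92% and 7.8% of all genes. In BDL as compared to FO, where limma called 0, 3 of the 6 had an unadjusted and an adjusted p under 0.05, the latter beside 7.73% of all genes. St3gal4, a sialyltransferase of selectin ligand synthesis, was higher in MZ than in FO (log2 fold change 1.48, limma adjusted p = 8.6e-05). Among 4 tested matrix ligands and counter-receptors, 0, 2 and 1 were called, beside the same shares of all genes. In BDL as compared to FO, where limma called 0, 3 of the 4 had an unadjusted and 2 an adjusted p under 0.05. For either list, the share of all genes with an unadjusted p under 0.05 was not counted. Mfge8, a ligand of alphaV integrins, was lower in MZ than in FO (-1.35, adjusted p = 4.1e-04), and Nid1, a basement membrane protein, was higher (1.15, adjusted p = 9.9e-05).

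Of 22 other tested adhesion molecules, 4, 11 and 11 were called, beside 1.91%, 8.92% and 7.8% of all genes. Sirpa, the receptor of Cd47, was at 1.17, 1.13 and 1.08 FPKM in FO, at 2.34, 2.45 and 2.38 FPKM in BDL and at 11.9, 15.5 and 11.4 FPKM in MZ. The 3 ranges did not overlap, and the log2 fold change was 1.02 (limma adjusted p = 0.0026) in BDL as compared to FO and 3.40 (adjusted p = 8.1e-07) in MZ as compared to FO. The former was under 2-fold without FO replicate 3 (0.99) and with upper quartile scaling (0.96), and narrowly so with quantile normalization. Emb, embigin, had the same order (1.40, adjusted p = 0.0062, and 3.83, adjusted p = 6.0e-06). It was at 0.238 to 0.470 FPKM in FO and passed the 0.5 FPKM minimum through BDL and MZ.

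L1cam, an immunoglobulin family receptor, went the other way, at 3.98, 3.91 and 3.36 FPKM in FO, 1.61, 1.66 and 1.59 FPKM in BDL and 0.385, 0.351 and 0.441 FPKM in MZ. The gene passed the FPKM minimum through FO and BDL. It was lower than in FO in BDL (log2 fold change -1.16, limma adjusted p = 0.0015) and in MZ (-2.97, adjusted p = 1.5e-06). Spn, the sialomucin CD43, was highest in BDL at 6.89, 8.34 and 5.65 FPKM, with 2.64 to 3.11 FPKM in FO and 0.965 to 1.15 FPKM in MZ (1.21 in BDL as compared to FO, adjusted p = 0.0032). Cdh17, the cadherin of liver and intestine, was higher in MZ than in FO (3.38, adjusted p = 6.6e-06), and Alcam, the ligand of CD6, was lower (-2.73, adjusted p = 1.1e-06). Of 9 further integrin chains, Itga10 alone was tested and did not pass in any comparison, with an unadjusted p of 0.033 in BDL as compared to FO (adjusted p = 0.16).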

How the data were processed

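RNA of sorted splenic B cells was sequenced in 9 libraries, 3 each of FO, BDL and MZ. The authors aligned reads to mm9 with TopHat 2.1.0 and made FPKM with Cufflinks, whose version and annotation are not given in the sources used here. The deposited FPKM are normalized to transcript length and library size. The labels call the reads single-end and not strand specific, while the study's methods name a stranded kit, and how fragments shared by paralogs such as Actn1 and Actn4 were divided was not given. Read counts were not used here, and FPKM are not counts, so depth was only estimated from the spacing of low values (67.1% to 75.0% of them within 0.1 of a whole fragment).

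Genes with a mean of at least 0.5 FPKM were tested on log2(FPKM + 0.1) with limma 3.58.1 in R 4.3.3, with all 9 libraries in a single fit, a trended variance and Benjamini-Hochberg adjustment over 11597 genes. Fold changes are on that scale and understate changes of low genes. The study used Cuffdiff, which needs the reads. Intervals are 95%. Chain sums, shares and the Itgb7 to Itgb1 ratio were compared with the exact permutation test. The fit was tested on simulated data. The members and lists were chosen with earlier results of these data known.

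Members with an adjusted p under 0.05 in a comparison are given in every library, and the others by range. Of the other lists, called genes are named, at most 6 per list, largest changes first; 1 gene that this rule names is not reported here. Positions are from GENCODE on NCBIM37, which is mm9. The fit reported had the subset as its only term, and the exact test was also unpaired. Pairing libraries by the date tag in the titles was an alternative. Deviations from subset means of libraries sharing a date correlated, for replicates 1, 2 and 3, at 0.147, 0.049 and -0.062 for BDL with FO, 0.024, 0.014 and 0.008 for MZ with FO and 0.1, 0.244 and 0.182 for BDL with MZ. Between libraries of unlike date the correlations were -0.183 to 0.13, -0.023 to 0.01 and -0.189 to 0.038. The libraries of a subset differ in their sort, pool and date tag, and the step that the tag dates is not stated. The limma p-values rest on the spread between libraries within subsets, estimated over all 9 libraries and moderated across genes. Alternatives were the value added, the minimum, scaling, variance model, libraries in the fit, call rule, leaving out each library and the date as a block.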

Additional observations from a re-analysis of the deposited data

How the results depend on the processing

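The counts of called genes depended most on the fold change minimum. In BDL versus FO, with 1 gene higher and 0 lower among the 22, there were 4 higher and 1 lower with no fold change minimum, 2 higher with no minimum on FPKM and 2 higher with a minimum of 0.1 FPKM, an alternative chosen after seeing the data. Leaving out 1 library gave 1 to 2 higher. Among the other adhesion genes, with 4 higher and 1 lower, there were 11 and 3 with no fold change minimum. With 1 added before the log there were 1 higher and 0 lower. There were 2 lower with the replicate block, with upper quartile scaling and with robust variance, and leaving out 1 library gave 2 to 4 higher and 1 to 2 lower. In MZ versus FO, with 3 higher and 4 lower among the 22, there were 7 and 7 with no fold change minimum. There was 1 higher with 1 added and with quantile normalization, and leaving out 1 library gave 1 to 3 higher. The other adhesion genes, with 11 higher and 12 lower, gave 19 and 24 with no fold change minimum. In BDL versus MZ, with 6 higher and 0 lower, there were 3 lower with no fold change minimum and 1 lower with no minimum on FPKM and with a minimum of 0.1 FPKM. The other adhesion genes, with 11 in each direction, gave 22 higher and 19 lower with no fold change minimum. Looser call rules and lower minimums add genes by construction, and the cause of the other changes was not tested.

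No difference past the threshold changed sign under the 23 alternatives to each comparison. Of 129 pairs of a gene and a comparison, 16 changed sign in at least 1 alternative, none of which passed in the fit reported (smallest limma adjusted p 0.33). For single genes, 2871 values kept their side of the threshold, 61 lost it and 35 gained it, and Itgb7, Vcl and Actn1 in BDL versus FO kept theirs in 23 of 23. Pairing libraries by date changed which of the 22 genes passed only as given for Itga4, Itgav, Itgb1, Itgb2, Cd47 and Rassf5. With 1 added, Emb, L1cam, Rapgef3 and Sirpa in BDL versus FO, Actn1, Itgb3, L1cam, Ptk2 and Rap1gap2 in BDL versus MZ, and Actn1, Itgam, Mfge8, Nid1, Rapgef3, Spn and Tns3 in MZ versus FO fell under 2-fold. Of the other genes named, the pairing by date brought Cdh17, Mfge8, Rap1gap2 and Rapgef4 in BDL versus FO and Rapgef4 in BDL versus MZ under an adjusted p of 0.05. With 3 pooled libraries per subset, small differences may go undetected, and levels under 0.5 FPKM rest on few fragments.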
